A study of Mus musculus with 22 samples.

Results

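IGHJ2 is a joining (J) segment of the mouse immunoglobulin heavy chain locus, and its rearrangements were taken from every library of a kidney B cell repertoire study as the sequences whose first J gene name was IGHJ2. They numbered 5581 of 17178 sequences (32.5%) and 41319 of 123192 reads (33.5%), a sequence being a distinct V-D-J nucleotide sequence with at least 2 reads. A clonotype was a CDR3 nucleotide sequence with its V and J segment, counted once per library, and 2118 of 6754 clonotypes (31.4%) carried IGHJ2. No sequence had more than 1 J segment name, and 5530 of the IGHJ2 sequences were named allele 01.

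The libraries were made from B cells sorted from kidneys of wild-type female C57BL/6 mice aged 8 to 10 weeks, whose bladders had been inoculated 2 times at the start of the experiment with uropathogenic Escherichia coli (UPEC, 5 mice) or with PBS as control (6 mice). Kidneys were taken at day 56. An antibody against CD45 injected before death labelled cells in the circulation, so that each mouse gave 1 extravascular (CD45IV-) and 1 intravascular (CD45IV+) library. The tables hold heavy chain transcripts alone, so the sorted cell type could not be checked against other marker genes.

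A heavy chain variable exon is assembled by joining a D segment to a J segment and then a V segment to that product, while nucleases trim the ends and terminal transferase adds non-templated (N) nucleotides. The J segment encodes the end of the third complementarity-determining region (CDR3), the part of the receptor that usually contacts antigen most closely, and the whole framework region that follows it (FR4). B-1 cells, many of which arise early in life, are known for germline-like receptors with few N nucleotides and for recurrent V-J pairs such as Ighv11 and Ighv12 with Ighj1.

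The germline J segments are shown because each sets the length and the last residues of the CDR3s it forms. Ighj2 lies at chr12:113429468-113429515 of GRCm38 on the minus strand, between Ighj1 (chr12:113429781-113429833) and Ighj3 (chr12:113429085-113429132), with Ighj4 (chr12:113428514-113428567) farthest along. Each is written 5′ to 3′ on the coding strand as read from the RefSeq assembly, and capitals mark the nucleotides that lie in the CDR3, the conserved tryptophan codon included.
Ighj1: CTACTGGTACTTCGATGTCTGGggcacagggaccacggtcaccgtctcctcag
Ighj2: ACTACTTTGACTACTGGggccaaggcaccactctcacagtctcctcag
Ighj3: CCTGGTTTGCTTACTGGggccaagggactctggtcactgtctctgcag
Ighj4: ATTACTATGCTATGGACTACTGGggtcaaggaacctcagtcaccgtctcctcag
Untrimmed Ighj2 gives 17 nucleotides to the CDR3 and the residues YFDYW, as does Ighj3 in length with WFAYW, whereas Ighj1 gives 22 nucleotides and YWYFDVW and Ighj4 gives 23 nucleotides and YYAMDYW.

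Depth differed between the libraries. Totals ran from 244 sequences (936 reads, UPEC mouse 1, extravascular) to 2134 sequences (18956 reads, PBS mouse 1, extravascular), and IGHJ2 sequences from 86 to 850. Many clonotypes of the larger libraries differed at 1 CDR3 nucleotide from a more frequent clonotype with the same V and J segment and length. Folding such neighbours into the larger clonotype, which was chosen as an alternative once the data had been seen, removed 256 of 616 IGHJ2 clonotypes (41.6%) in the PBS extravascular libraries and 15 of 594 (2.53%) in the PBS intravascular ones. For clonotypes with other J segments the same shares were 40.7% and 4.71%. Whether such neighbours came from mutation in the cells or from amplification and sequencing was not tested, so results that turn on them are given both ways.

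The share of IGHJ2 varied widely between the PBS extravascular libraries when sequences were counted and little when merged clonotypes were, which did not hold for UPEC ones. In the extravascular libraries of PBS mice 1 to 6, IGHJ2 made up 31.0%, 59.7%, 34.4%, 23.5%, 11.5% and 35.1% of sequences. The highest and lowest of these, mouse 2 with a 95% Wilson interval of 57.1% to 62.2% and mouse 5 with 9.38% to 13.9%, lay far apart beside their counting error, which is all that these intervals cover. The intravascular libraries of the same mice held 37.4%, 31.4%, 28.5%, 30.2%, 29.4% and 19.6%. In UPEC mice 1 to 5 the extravascular values were 38.1%, 13.7%, 30.8%, 36.1% and 35.1% and the intravascular ones 29.8%, 28.5%, 37.4%, 31.3% and 34.2%.

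By compartment, the mean share of sequences was 32.5% ± 15.97 (SD, n = 6) extravascular and 29.4% ± 5.74 (n = 6) intravascular in PBS mice, with 3 mice higher and 3 lower (exact signed-rank test, two-sided, p = 1, adjusted p = 1 over the 4 J segments). In UPEC mice it was 30.7% ± 9.90 and 32.3% ± 3.58 (n = 5 each, exact p = 1). Extravascular UPEC and PBS libraries overlapped throughout (exact Mann-Whitney test, p = 0.792), as did the intravascular ones (exact p = 0.459). In bulk samples such as these, more cells with a rearrangement and more transcript per cell cannot be told apart. Counted by clonotype, IGHJ2 ran from 22.7% to 44.9% in PBS extravascular libraries, and after merging from 31.1% to 33.5%, a mean of 32.4% ± 0.984 (n = 6). UPEC extravascular libraries then ran from 25.6% to 39.7% (32.6% ± 5.44, n = 5), with the highest (mouse 1) and the lowest (mouse 5) merged shares of all 22 libraries. None of the clonotype comparisons differed beyond the spread between mice (exact p from 0.792 to 1 for clonotypes as deposited and from 0.312 to 0.662 after merging).

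**Figure D1:**
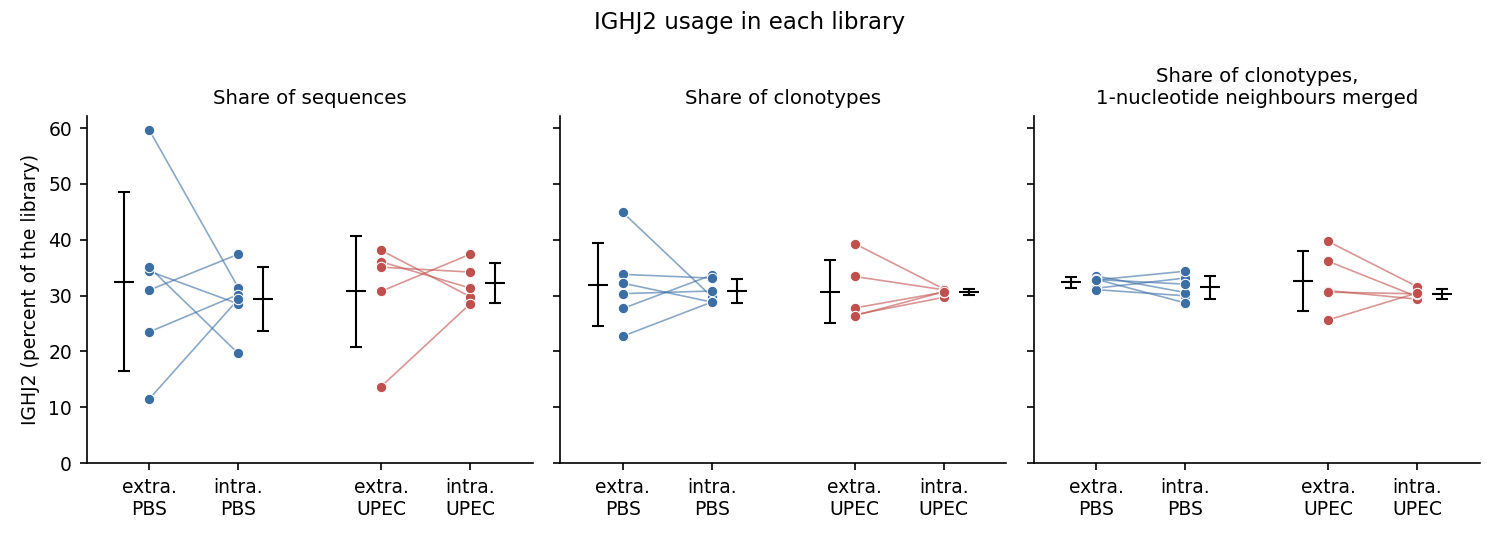
Percent of each library that carried IGHJ2, counted by sequence, by clonotype and by clonotype after merging 1-nucleotide neighbours. Each point is 1 library, lines join the 2 libraries of a mouse, and bars give mean ± SD. The PBS extravascular points run from 11.5% to 59.7% by sequence and from 31.1% to 33.5% after merging.

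The V partners of IGHJ2 came mostly from 3 families. Ighv3 segments were joined to 1012 IGHJ2 clonotypes and 3792 IGHJ2 sequences, Ighv1 to 577 and 816, and Ighv5 to 290 and 334, and the next were Ighv12 with 85 and 456 and Ighv10 with 41 and 47. As a mean over the 11 mice, Ighv3 made up 45.2% of IGHJ2 clonotypes and 40.4% of clonotypes with other J segments, a difference of 4.88 points with 6 mice higher and 5 lower (exact signed-rank test over mice, p = 0.206). After merging the Ighv3 shares were 36.9% and 35.8%, and 6 mice were again higher (exact p = 0.765). Ighv1, the largest mouse V family, made up 29.0% of IGHJ2 clonotypes and 23.3% of others, and its exact p of 0.0420 became 0.109 after adjustment over the 12 families.

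Ighv11, Ighv12 and Ighv13 each made up a smaller share of IGHJ2 clonotypes than of those with the other J segments together. Of 146 Ighv11 clonotypes, 141 carried IGHJ1 and 1 carried IGHJ2, and the Ighv11 share was lower among IGHJ2 clonotypes in 11 of 11 mice (0.0344% against 3.15%, exact signed-rank test, p = 0.000977, adjusted p = 0.0117 over the 12 families). With IGHJ3 and IGHJ4 Ighv11 had 2 clonotypes each, 0.155% and 0.120% of those J segments pooled against 8.39% of IGHJ1, so that IGHJ1 alone stood well above the rest. The single Ighv11-IGHJ2 clonotype was in a PBS intravascular library. In the PBS extravascular libraries 0 of 66 Ighv11 clonotypes carried IGHJ2, which allows a share of up to 4.55%. Ighv12, whose only segment here was IGHV12-3, made up 4.35% of IGHJ2 clonotypes against 10.2% of others and was lower in 10 of 11 mice (exact p = 0.00293, adjusted p = 0.0117). After merging, the Ighv12 shares were 3.11% and 4.54% (exact p = 0.0137, adjusted p = 0.0547), so that this difference no longer passed the threshold. Split by J and pooled over libraries, Ighv12 had 368 clonotypes with IGHJ1, 85 with IGHJ2, 65 with IGHJ3 and 35 with IGHJ4, or 21.9%, 4.01%, 5.03% and 2.11% of each J, so that IGHJ1 alone stood well above IGHJ2. Ighv13 made up 1.57% against 3.15%, lower in 10 of 11 mice (exact p = 0.00293, adjusted p = 0.0117), and pooled it made up 1.61% of IGHJ2 clonotypes and 2.68%, 3.94% and 3.19% of those with IGHJ1, IGHJ3 and IGHJ4.

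**Figure D2:**
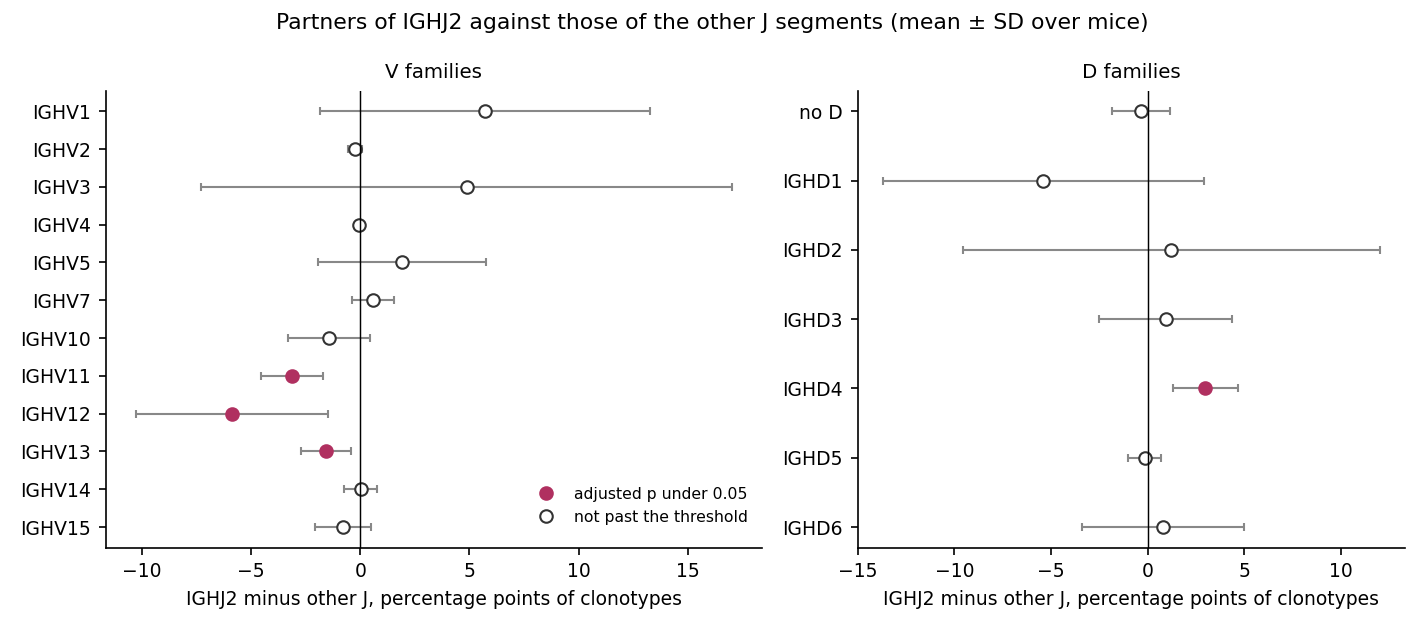
Difference between IGHJ2 clonotypes and clonotypes with other J segments in the percent made up by each V family (left) and D family (right), as mean ± SD over 11 mice. Filled points passed an adjusted p of 0.05 in the exact signed-rank test. Ighv11, Ighv12 and Ighv13 lie below 0 and Ighd4 lies above it.

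At the level of segments, the 10 most frequent partners by clonotypes were IGHV3-8 (336), IGHV3-6 (306), IGHV3-1 (252), IGHV1S22 (117), IGHV5-17 (107), IGHV12-3 (85), IGHV5-6 (82), IGHV1-53 (68), IGHV5-4 (65) and IGHV3-3 (59). By sequences, IGHV3-5 (134) and IGHV1-58 (115) took the places of IGHV5-6 and IGHV5-4. IGHV3-8, IGHV3-6 and IGHV3-1 were joined to IGHJ2 in all 11 mice, with 1365, 590 and 1156 sequences. IGHV3-6 came first after merging, with 279 clonotypes, ahead of IGHV3-8 with 209 and IGHV3-1 with 154, while IGHV3-3 fell to 9. Of the 531 IGHJ2 sequences of IGHV3-3, 431 belonged to 1 clonotype of PBS mouse 1, which held 486 with its neighbours folded in. IGHV3-5 had 46 IGHJ2 clonotypes in 9 mice, 0 of them in the PBS extravascular libraries and 24 in the PBS intravascular ones, with 9 in UPEC extravascular and 13 in UPEC intravascular libraries. Over all J segments IGHV3-5 had 120 clonotypes, 38.3% of them with IGHJ2. Whether IGHV3-5 with other J segments was split alike between the groups was not tested. IGHV3-4 had 13 IGHJ2 clonotypes in 6 mice. IGHV1S22 and IGHV5-17 were diverse partners, in that their largest IGHJ2 clonotypes held 2 and 5 sequences.

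Whether Ighv3 was rarer among extravascular IGHJ2 rearrangements depended on how clonotypes were counted. As deposited, Ighv3 made up 46.4% ± 15.96 of IGHJ2 clonotypes in PBS extravascular and 49.5% ± 13.5 in PBS intravascular libraries (n = 6 each), with 3 mice higher and 3 lower (exact signed-rank test, p = 0.844). Counted by sequence, the means were 72.1% and 61.2%, with 4 mice higher (exact p = 0.312). After merging, the extravascular values of mice 1 to 6 were 12.9%, 30.1%, 30.2%, 14.7%, 22.2% and 23.9% and the intravascular ones 44.7%, 71.3%, 54.1%, 37.9%, 51.4% and 30.7%. These groups did not overlap, and the mean of 22.3% ± 7.37 was below that of 48.3% ± 14.2 in 6 of 6 mice (exact p = 0.03125, the smallest that 6 pairs allow, and 0.188 after adjustment over the 12 families).

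Other J segments showed the same direction. After merging, Ighv3 made up 20.6% ± 5.25 of their extravascular and 47.2% ± 9.28 of their intravascular clonotypes in PBS mice (lower in 6 of 6, exact p = 0.03125). The excess of Ighv3 among IGHJ2 over other J clonotypes differed between the compartments by 0.643 points (3 mice higher, 3 lower, exact p = 1). As deposited, that excess was 14.5 points extravascular and -0.103 intravascular, higher in 5 of 6 mice (exact p = 0.063). The change of this contrast with treatment was -18.8 points as deposited (exact permutation p = 0.0476, not adjusted) and -2.80 after merging (exact permutation p = 0.626). In UPEC mice, merged Ighv3 shares of IGHJ2 clonotypes were 10.1%, 14.9%, 36.4%, 41.8% and 31.7% extravascular and 58.8%, 62.1%, 45.5%, 38.5% and 48.8% intravascular, lower in 4 of 5 mice (exact p = 0.125, where 5 pairs allow no less than 0.063). UPEC and PBS extravascular libraries differed by 4.63 points after merging (exact Mann-Whitney test, p = 0.429) and by -16.4 points before it (exact p = 0.126).

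**Figure D3:**
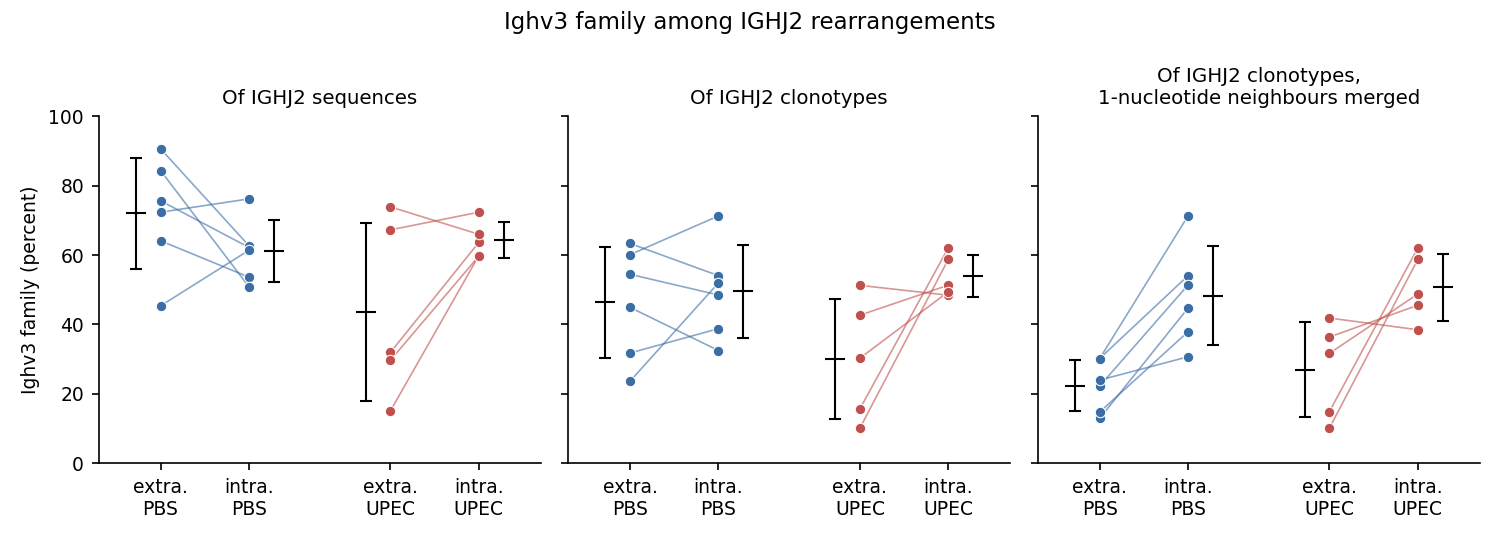
Percent of IGHJ2 sequences, clonotypes and merged clonotypes that used an Ighv3 segment, for each library, with lines joining the libraries of a mouse and bars for mean ± SD. After merging, the 6 PBS extravascular libraries lie between 12.9% and 30.2% and the 6 PBS intravascular libraries between 30.7% and 71.3%.

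A limma fit over all V family and J pairs, with the mouse as a block, called 6 of 25 pairs (24%) between PBS extravascular and intravascular libraries at an adjusted p of 0.05, 2 of them among the 7 IGHJ2 pairs tested. Ighv15-IGHJ2 made up 0.134% of extravascular and 0.904% of intravascular clonotypes (log2 difference -2.10 ± 0.56 SE, adjusted p = 0.0138). Ighv13-IGHJ2 made up 0.174% and 0.988% (log2 difference -2.04 ± 0.59 SE, adjusted p = 0.0185). These are small counts, 3 extravascular and 17 intravascular clonotypes for Ighv15 and 3 and 20 for Ighv13. Both pairs reached the required 3 clonotypes in 3 intravascular libraries and in 1 and 0 extravascular ones, so they were tested because they were high in that compartment. Without mouse 1, 2 or 3, Ighv13-IGHJ2 no longer reached the filter and was not tested, and without the others it was called (limma adjusted p from 0.0274 to 0.0365). Ighv15-IGHJ2 was tested without each mouse, with log2 differences from -2.56 to -1.78, and its call was lost without mouse 3 (adjusted p = 0.0725) and without mouse 4 (adjusted p = 0.0680). With IGHJ1 the log2 difference was -2.20 for Ighv13 (limma adjusted p = 0.0126) and -1.52 for Ighv15 (limma adjusted p = 0.0539). Both IGHJ1 pairs also reached the filter in 3 intravascular libraries. Ighv13-IGHJ3 had a log2 difference of -0.996 (limma adjusted p = 0.464). Counted by sequence, 7 of 28 pairs (25%) were called, with Ighv13 and Ighv15 the 2 among 8 IGHJ2 pairs. After merging, 11 of 23 pairs (47.8%) were called, among them Ighv13, Ighv15 and Ighv3 of the 6 IGHJ2 pairs tested, the last as Ighv3-IGHJ2 (7.24% against 15.1%, log2 difference -1.07 ± 0.36 SE, adjusted p = 0.0273). Between UPEC and PBS extravascular libraries 1 of 21 pairs (4.76%) was called and 0 of the 5 IGHJ2 pairs. The called pair, Ighv12-IGHJ3 (log2 difference 2.78, limma adjusted p = 0.0335), reached the filter in 3 UPEC and 0 PBS libraries. Of the IGHJ2 pairs 1, Ighv12-IGHJ2, had an unadjusted p under 0.05 (2.46% against 1.33% of clonotypes, log2 difference 2.05 ± 0.89 SE, limma adjusted p = 0.373). This pair reached the required 3 clonotypes in 5 of 5 UPEC and 2 of 6 PBS libraries, so it too was tested because of the group in which it was high. Without PBS mouse 1, which held 18 of its 27 PBS extravascular clonotypes, limma called it as higher (adjusted p = 0.0481). By sequence, 1 of 24 pairs (4.17%) and 0 of the 6 IGHJ2 pairs were called, with Ighv12-IGHJ2 at 4.47% against 1.64% of sequences (log2 difference 3.8 ± 1.25 SE, limma adjusted p = 0.0743), and after merging 0 of 20 pairs (0%).

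Among D segments, which encode the middle of the CDR3, Ighd4 was paired with IGHJ2 more often than with the other J segments. Its only segment here, IGHD4-1, lies closest to the J cluster, and it made up 10.6% of IGHJ2 clonotypes against 7.62% of others. It was the higher of the pair in each of the 11 mice (exact p = 0.000977 by the signed-rank test, adjusted p = 0.00684 over 7 D classes). After merging the values were 11.5% and 7.89%, higher in 10 of 11 mice (adjusted p = 0.0137, exact test). Counted by sequence, it was higher in 7 of 11 (exact p = 0.0674). Ighd2 made up 42.3% and 41.1%, Ighd1 32.3% and 37.7% and Ighd3 9.59% and 8.67%, and none of these differences passed the test (adjusted p from 0.291 to 0.831). In intravascular libraries Ighd2 made up 44.6% ± 4.72 of IGHJ2 clonotypes in UPEC and 34.4% ± 4.17 in PBS mice, with all 5 UPEC libraries above all 6 PBS ones (exact Mann-Whitney test, p = 0.00433, adjusted p = 0.0303 over 7 classes). After merging the values were 42.7% and 34.0% (exact p = 0.0303, adjusted p = 0.106), so that this call was lost. Whether Ighd2 differed likewise between treatments with other J segments was not tested. Clonotypes without an assigned D numbered 51. The most frequent D segments with IGHJ2 were IGHD1-1 in 600 clonotypes, IGHD2-3 in 254, IGHD4-1 in 222, IGHD2-4 in 191 and IGHD2-5 in 136. Merging left 564, 183, 208, 159 and 83 of these, so that IGHD4-1 passed IGHD2-3 and IGHD2-5 left the first 5. IGHD6-3 had 44 IGHJ2 clonotypes and 494 sequences, of which 373 were 1 clonotype.

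IGHJ2 clonotypes had shorter CDR3s than those with IGHJ1 or IGHJ4, and a shorter J-encoded part. Their mean length was 39.7 nucleotides against 42.9 for other J, shorter in 11 of 11 mice by 3.16 ± 0.806 (SD) nucleotides (exact signed-rank test, p = 0.000977, adjusted p = 0.00293 over 3 measures). Against IGHJ1 the difference was -4.38 nucleotides in length and -4.91 in the J part, and against IGHJ4 it was -4.38 and -4.69 (exact p = 0.000977 for each, adjusted p = 0.00269 over 11 measures). Germline Ighj2 gives 17 nucleotides to the CDR3, Ighj1 22 and Ighj4 23. A shorter J part was thus set by the segments themselves, and its p is no separate result. Against IGHJ3, whose germline J part is equally long, the CDR3s differed by -0.223 nucleotides (exact p = 0.700). Ighj2 was left untrimmed in 33.2% of clonotypes, compared with 24.3% for Ighj1 (higher in 10 of 11 mice), 25.8% for Ighj3 (9 of 11) and 13.02% for Ighj4 (11 of 11). The adjusted p was 0.0043, 0.0537 and 0.00269 in this order (exact tests, 11 measures). On average 3.55 nucleotides were missing from it, 4.89 from Ighj4 (more in 11 of 11 mice, exact p = 0.000977), 3.63 from Ighj1 (exact p = 0.577) and 3.46 from Ighj3 (exact p = 0.413). After merging, Ighj2 had lost more than Ighj1, 3.43 against 2.88, in 10 of 11 mice (exact test, adjusted p = 0.0046).

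In PBS mice, the mean CDR3 length of extravascular IGHJ2 clonotypes was below that of intravascular ones in each mouse, with a p that did not pass after adjustment. Extravascular means for mice 1 to 6 were 37.8, 39.0, 38.8, 38.8, 38.4 and 38.4 nucleotides and intravascular means 39.0, 39.4, 40.9, 39.8, 40.9 and 41.0. The extravascular mean was lower in 6 of 6 mice (38.5 ± 0.438 against 40.2 ± 0.888, a difference of -1.62 ± 0.922, exact signed-rank test, p = 0.03125, adjusted p = 0.188 over the 6 measures compared). With sequences of at least 3 reads alone the difference was -1.43 in 5 of 6 mice (exact p = 0.063). In UPEC mice the extravascular means were 40.1, 39.6, 39.2, 40.4 and 41.5 nucleotides and the intravascular ones 40.4, 40.3, 39.98, 39.4 and 40.2, with 2 mice higher and 3 lower (difference 0.119, exact p = 0.812). All 5 UPEC extravascular values were above all 6 PBS extravascular values (40.2 ± 0.882 against 38.5 ± 0.438, exact Mann-Whitney test, p = 0.00433, the smallest that 5 against 6 allows, adjusted p = 0.0260 over 6 measures). After merging the difference was 1.41 nucleotides (exact p = 0.00866). Over the 11 measures of CDR3 make-up, the adjusted p was 0.0476 before merging and 0.0952 after it, so that the call was lost. Intravascular UPEC and PBS libraries differed by -0.105 nucleotides (exact p = 0.931).

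The compartment difference of IGHJ2 CDR3 length itself differed between treatments, by 1.74 nucleotides (exact permutation test over mice, p = 0.0195, not adjusted over the 6 such changes tested). After merging this became 1.96 (exact permutation p = 0.0108, not adjusted). For clonotypes with other J segments, the extravascular minus intravascular difference was -0.120 nucleotides in PBS mice (3 higher, 3 lower, exact p = 0.844) and -0.434 in UPEC mice (exact p = 0.625). The test of IGHJ2 against other J gave a compartment difference of -1.50 nucleotides in PBS mice (lower in 5 of 6, exact p = 0.063) and, after merging, of -1.77 (lower in 6 of 6, exact p = 0.03125). The change of that contrast with treatment was 2.06 nucleotides (exact permutation p = 0.0130), and 2.69 after merging (exact permutation p = 0.00649), neither of them adjusted. By parts, the IGHJ2 CDR3s of PBS extravascular libraries held 0.533 fewer D nucleotides (9.90 against 10.4) and 0.405 fewer N nucleotides between V and D (2.97 against 3.37), each lower in 6 of 6 mice (exact p = 0.03125, adjusted p = 0.115 over 11 measures). The J part was shorter by 0.883 nucleotides in 5 of 6 mice (exact p = 0.156). CDR3s of 36 nucleotides made up 25.3% of pooled IGHJ2 clonotypes in PBS extravascular libraries and 15.3% in PBS intravascular ones, but 14.7% and 15.0% after merging. In UPEC mice the most frequent length was 42 nucleotides in both compartments (19.5% extravascular and 18.1% intravascular, 17.99% and 17.6% after merging).

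**Figure D4:**
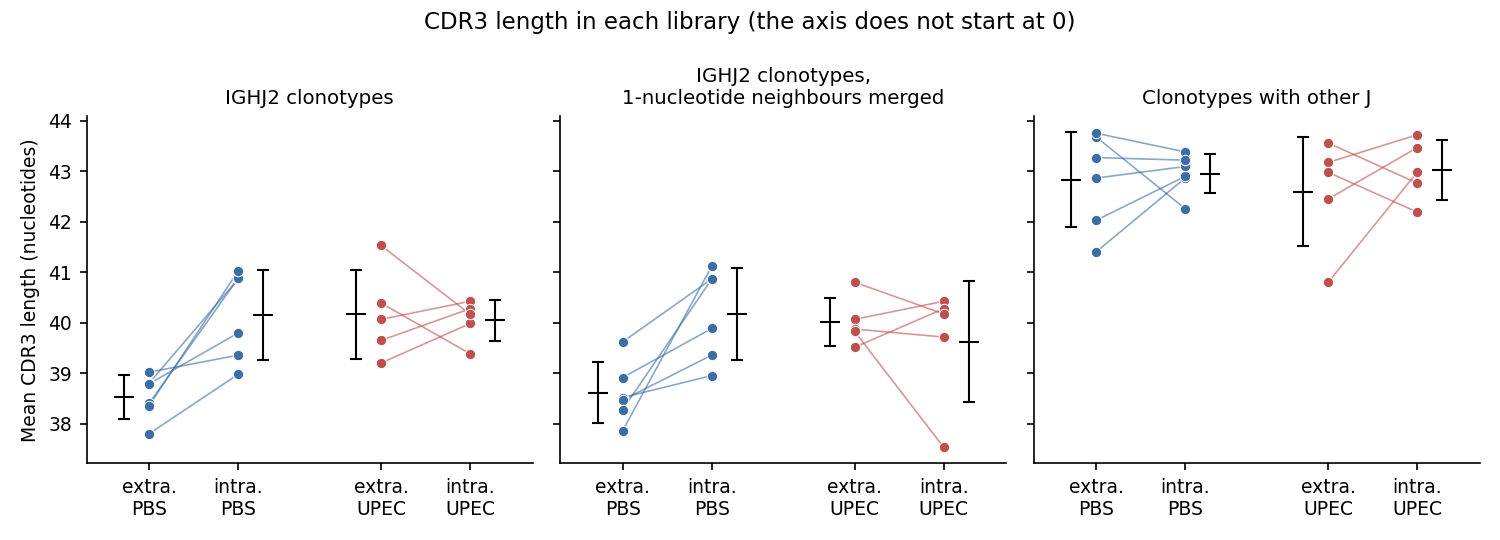
Mean CDR3 length in nucleotides of IGHJ2 clonotypes, of IGHJ2 clonotypes after merging and of clonotypes with other J segments, for each library, with lines joining the libraries of a mouse and bars for mean ± SD. PBS mice lie lower in the extravascular compartment in both IGHJ2 panels, in 6 of 6 mice, while 3 of 5 UPEC mice are lower before merging and PBS mice split 3 and 3 for the other J segments.

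The residues encoded by Ighj2 marked the end of these CDR3s. The whole motif YFDYW closed 969 of 2118 IGHJ2 clonotypes (45.8%) and 0 of 4636 with other J segments. No other germline J segment encodes YFDYW, and the J name rests partly on the same nucleotides. The 0 therefore follows from how the clonotypes were chosen and is no separate result. Trimmed to FDYW the motif closed 1501 IGHJ2 clonotypes (70.9%) and 1 other clonotype, to DYW 1902 (89.8%), and to YW 2040 (96.3%). DYW also closed 35.1% of clonotypes with other J segments, among them those with Ighj4, which encodes it too. In PBS mice YFDYW closed 41.3% ± 11.6 of extravascular and 49.8% ± 7.04 of intravascular IGHJ2 clonotypes (n = 6 each, lower in 5 of 6, exact signed-rank test, p = 0.312). FDYW closed 64.8% ± 10.4 and 76.7% ± 6.21 (lower in 5 of 6, exact p = 0.0938). The 3 residues before YFDYW were YSN in 38 clonotypes, SSY in 37, YPY in 26, GYY in 23 and NAY in 21. SSY, which IGHD1-1 can encode, occurred in 10 mice, in 19 of 445 extravascular (4.27%) and 18 of 524 intravascular (3.44%) clonotypes that end in YFDYW. YSN lay in 32 extravascular and 6 intravascular clonotypes, most often of IGHV3-3 with IGHD2-5, and NAY in 21 extravascular clonotypes of 1 mouse, most often of IGHV3-1 with IGHD6-3. After merging, YSN lay in 8 extravascular and 6 intravascular clonotypes and NAY in 5 extravascular ones. These V and D segments are those of the 2 largest IGHJ2 clonotypes.

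N nucleotides in IGHJ2 clonotypes averaged 5.83 per CDR3 against 5.51 with other J segments, and 7 of 11 mice showed this direction (exact p = 0.147 by the signed-rank test, adjusted p = 0.206 over 3 measures). The difference was 0.436 by sequence (exact p = 0.0322), 0.571 with sequences of at least 3 reads (exact p = 0.00488) and 0.320 after merging (exact p = 0.0322), none of them adjusted. Against IGHJ1 alone, the partner of most Ighv11 and Ighv12 clonotypes, they were higher by 0.791 (5.83 against 5.04, 8 of 11 mice, exact p = 0.0186, adjusted p = 0.0255 over 11 measures). CDR3s with a D segment and no N nucleotide made up 7.26% of IGHJ2 and 12.9% of IGHJ1 clonotypes, lower in 11 of 11 mice (exact p = 0.000977). IGHJ3 had 7.44% (exact p = 0.831) and IGHJ4 5.11% (IGHJ2 higher in 9 of 11 mice, exact p = 0.0830). N nucleotides differed by 0.227 from IGHJ3 (exact p = 0.206) and by -0.0143 from IGHJ4 (exact p = 0.966). In PBS mice IGHJ2 clonotypes held 5.53 ± 1.01 N nucleotides extravascular and 5.84 ± 0.326 intravascular (4 of 6 mice lower, exact p = 0.562). After merging the means were 5.32 ± 0.285 and 5.80 ± 0.328, lower in 6 of 6 mice (exact p = 0.03125, adjusted p = 0.0859 over 11 measures). UPEC and PBS extravascular libraries differed by 0.465 N nucleotides (exact Mann-Whitney test, p = 0.662).

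Expanded clonotypes, defined as 20 or more sequences in a library, held 2650 of the 5581 IGHJ2 sequences. There were 34 of them among 2118 IGHJ2 clonotypes (1.61%), beside 78 of 4636 (1.68%) with other J segments. Of the 34, 31 were extravascular, 24 used Ighv3, 7 used IGHV12-3 and 3 used Ighv1. They took 81.8%, 75.9%, 75.7%, 52.2%, 0% and 68.2% of IGHJ2 sequences in the extravascular libraries of PBS mice 1 to 6. In the intravascular libraries of the same mice they took 12.9% in mouse 1 and 0% in the other 5. The mean difference was 56.8 points with 5 mice higher and mouse 5 tied at 0 (exact signed-rank test, p = 0.063, the smallest that 5 untied pairs allow). With 10 sequences as the threshold it was 54.2 points, and as the share of the single largest clonotype 28.2 points (exact p = 0.03125 for each, higher in 6 of 6). Every PBS extravascular library held more sequences (750 to 2134) than any PBS intravascular one (344 to 611). A fixed number of sequences is reached more readily in a deeper library. Expansion and depth therefore cannot be told apart in the differences at 10 and 20 sequences. Clonotypes with other J segments showed a like difference, 65.1% ± 10.03 against 7.74% ± 19.0 (57.4 points, 6 of 6 mice, exact p = 0.03125), and IGHJ2 minus other J differed between the compartments by -0.572 points (3 mice higher, 3 lower, exact p = 1).

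In UPEC mice the expanded shares were 0%, 22.3%, 55.5%, 35.4% and 59.7% extravascular, and 42.2% in mouse 4 and 0% in the other 4 intravascular (exact p = 0.25). UPEC extravascular libraries averaged 34.6% ± 24.6 and PBS ones 59.0% ± 30.7, and the groups overlapped (exact Mann-Whitney test, p = 0.132). Without PBS mouse 5 the difference was -36.2 points (exact p = 0.0317), and with sequences of at least 3 reads alone it was -44.3 points (exact p = 0.0455). The extravascular libraries without an expanded IGHJ2 clonotype, PBS mouse 5 and UPEC mouse 1, had the fewest IGHJ2 sequences of all 22, 86 and 93, and the part of depth in this was not tested. Clonotypes with other J segments were expanded in the first of these libraries (63.6% of their sequences) and not in the second (0%).

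**Figure D5:**
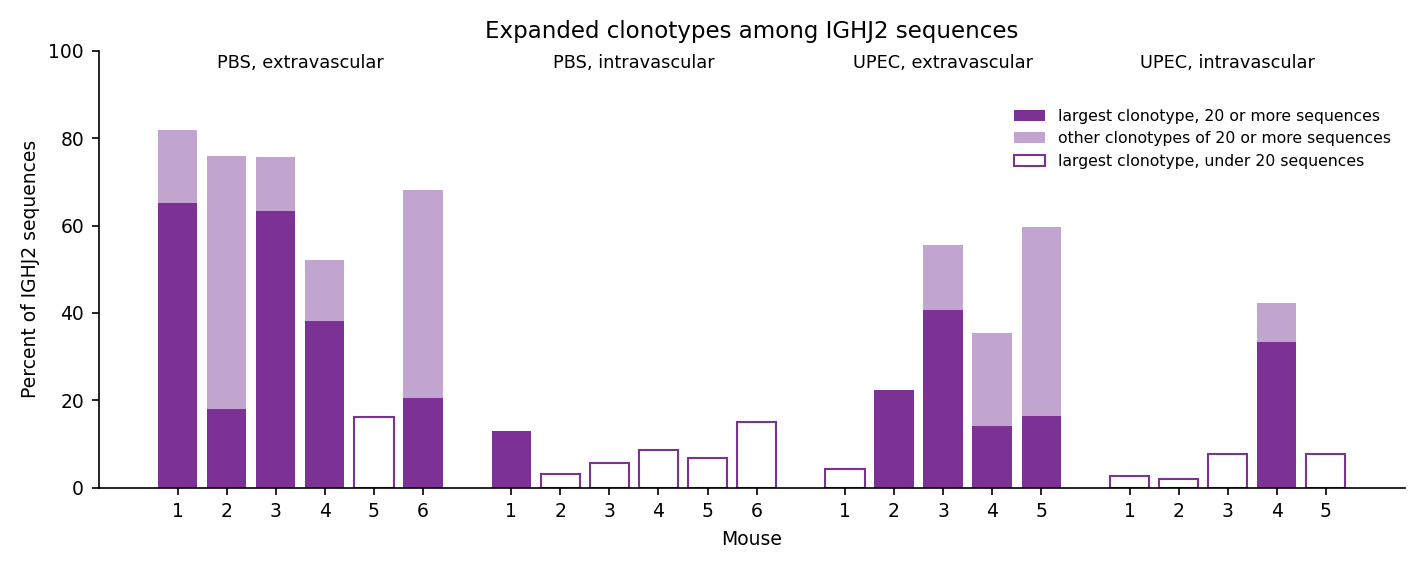
Percent of the IGHJ2 sequences of each library held by clonotypes of 20 or more sequences, with the largest clonotype in dark colour and open bars for libraries whose largest clonotype had under 20. PBS extravascular bars reach 52.2% to 81.8% in 5 of 6 mice, and PBS intravascular bars reach at most 15.0%.

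The 10 largest IGHJ2 clonotypes are shown because the 9 extravascular ones among them held 1607 of 3891 extravascular IGHJ2 sequences (41.3%). Each line gives the CDR3 from the conserved cysteine to the conserved tryptophan, 5′ to 3′, with the part assigned to Ighj2 in capitals.
PBS mouse 1, extravascular, IGHV3-3 with IGHD2-5: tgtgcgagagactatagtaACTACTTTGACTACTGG
PBS mouse 3, extravascular, IGHV3-1 with IGHD6-3: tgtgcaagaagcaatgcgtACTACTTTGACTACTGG
PBS mouse 2, extravascular, IGHV3-8 with IGHD2-3: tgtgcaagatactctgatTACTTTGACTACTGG
UPEC mouse 3, extravascular, IGHV3-8 with IGHD1-1: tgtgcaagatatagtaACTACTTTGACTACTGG
PBS mouse 2, extravascular, IGHV3-6 with IGHD2-3: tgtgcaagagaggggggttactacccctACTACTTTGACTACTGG
PBS mouse 2, extravascular, IGHV3-8 with IGHD2-13: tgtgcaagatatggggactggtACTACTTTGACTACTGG
PBS mouse 2, extravascular, IGHV1-53 with IGHD2-3: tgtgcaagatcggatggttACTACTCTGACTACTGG
UPEC mouse 4, intravascular, IGHV3-8 with IGHD2-1: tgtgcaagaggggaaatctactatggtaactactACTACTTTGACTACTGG
PBS mouse 6, extravascular, IGHV3-1 with IGHD4-1: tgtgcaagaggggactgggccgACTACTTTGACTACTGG
PBS mouse 4, extravascular, IGHV3-8 with IGHD2-13: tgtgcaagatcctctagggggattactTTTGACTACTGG
In this order they held 431, 373, 153, 138, 125, 116, 108, 98, 83 and 80 sequences. All but 2 kept the whole 17 nucleotides of Ighj2. The first had no N nucleotide, and neither had the third and the fourth.

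The IGHV3-3 clonotype of PBS mouse 1 made up 65.2% of that library's IGHJ2 sequences and 20.2% of the library, and 4 of its sequences were also found intravascularly in that mouse. The IGHV3-1 clonotype of PBS mouse 3 made up 63.4% and 21.8%, and was not found intravascularly. PBS mouse 2, with the highest IGHJ2 share, had 7 expanded IGHJ2 clonotypes, the largest of them at 18% of its IGHJ2 sequences. The 34 expanded clonotypes had CDR3s of 33 to 51 nucleotides with a median of 39, 20 ended in YFDYW, 17 had the whole Ighj2 end, and 6 had no N nucleotide. In the smallest libraries the most frequent IGHJ2 clonotypes were small, such as 4 sequences of IGHV3-6 with IGHD3-3 in the extravascular library of UPEC mouse 1. In the intravascular libraries of UPEC mice 1 and 2 the first place was tied, by 2 clonotypes of 3 sequences and by 12 of 2. In the other 20 libraries the most frequent IGHJ2 clonotype used an Ighv3 segment in 18. The exceptions were IGHV1-58 in the extravascular and IGHV12-3 in the intravascular library of UPEC mouse 5.

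Sequences with Igha reads, the constant region of IgA, were uncommon. Of 304 such sequences 218 (71.7%) carried IGHJ2, beside 32.5% of all sequences, and 112 of the 218 came from PBS mouse 2 and 80 from UPEC mouse 5, both extravascular. Intravascular libraries had 4 of 10 in PBS and 5 of 17 in UPEC mice, and by clonotype the figure was 35 of 69. The share was not tested. Of the expanded IGHJ2 clonotypes, 3 had mostly Igha reads. IGHV1-53 with IGHD2-3 in PBS mouse 2 had 108 sequences and 1433 of its 1460 reads were Igha (98.2%), IGHV1-64 with IGHD2-4 in UPEC mouse 5 had 35 sequences and all 531 reads Igha, and IGHV1-58 with IGHD1-1 in UPEC mouse 5 had 49 sequences and 302 of 447 reads (67.6%). These were the only 3 Ighv1 clonotypes among the 34 expanded ones, and the remaining 31 had no Igha read. The IGHV1-53 clonotype was also the only expanded one whose Ighj2 part differed from germline, by T7C counted from the 5′ end of Ighj2, which turns YFDYW into YSDYW. Across framework region FR4, 5.05% of 5564 IGHJ2 sequences differed from germline Ighj2 at 1 or more of 34 nucleotides, and at up to 29. By group this was 6.14% in PBS extravascular, 1.07% in PBS intravascular, 6.96% in UPEC extravascular and 2.96% in UPEC intravascular libraries. These shares pool the sequences of all mice of a group and count every member of an expanded clonotype, and they were not tested. The mean was 0.138 differences per sequence, and whether the highest counts are base changes was not tested.

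Few IGHJ2 clonotypes recurred between mice. Of 2092 distinct IGHJ2 clonotypes 6 (0.287%) were found in more than 1 mouse, compared with 37 of 1561 with IGHJ1 (2.37%), 5 of 1280 with IGHJ3 and 1 of 1655 with IGHJ4. Without Ighv11 the IGHJ1 figure was 19 of 1496 (1.27%) and that of IGHJ2 6 of 2091 (0.287%). The 6 IGHJ2 clonotypes are shown because identical CDR3 nucleotides in different mice mark the rearrangements that recur, with the Ighj2 part in capitals.
IGHV5-6 with IGHD1-1: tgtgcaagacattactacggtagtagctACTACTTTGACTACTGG
IGHV12-3 with IGHD2-3: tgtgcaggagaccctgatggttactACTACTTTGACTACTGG
IGHV12-3 with IGHD3-1: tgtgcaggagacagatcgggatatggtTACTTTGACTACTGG
IGHV3-1 with IGHD1-1: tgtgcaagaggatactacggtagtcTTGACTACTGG
IGHV5-12-1 with IGHD1-1: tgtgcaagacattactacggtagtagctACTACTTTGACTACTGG
IGHV3-6 with no assigned D: tgtgcaagagagggCTACTGG
The IGHV5-6 clonotype had no N nucleotide, was in 4 mice and 5 libraries of both treatments and both compartments, and had 1 sequence in each. IGHV5-12-1 with the same CDR3 nucleotides had 1 sequence in each of 2 extravascular libraries, both of which also held the IGHV5-6 form, and whether the V name alone separates them was not tested. The first IGHV12-3 clonotype, with 2 N nucleotides, was in 3 mice, and the other in 2. Of the 6, 3 were shared by UPEC mice 3 and 4 alone, with 4 and 3 N nucleotides where a D was assigned. Within a mouse, 17 of 2101 IGHJ2 clonotypes (0.809%) lay in both compartments, beside 58 of 4578 with other J segments (1.27%). The share was 2.69% for IGHJ1, 0.623% for IGHJ3 and 0.362% for IGHJ4. Of the 17, 13 were in UPEC mouse 4, where they made up 14.9% of extravascular and 19.4% of intravascular IGHJ2 sequences.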

How the data were processed

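Kidney B cells from 11 separate mice gave 22 heavy chain libraries, 1 per mouse and compartment. Per the study's methods, reads were quality filtered with QUASR, overlapping pairs were merged, molecules were grouped by barcode, the constant region was assigned, V and J genes were matched with BLAST, single-read sequences were removed and IMGT/V-QUEST annotated the rest. The deposited tables hold, for each remaining sequence, names, positions and nucleotides (unit: other), not normalized, and each identifier gives read numbers by isotype. The isotype names in the identifiers break off after Igha, so that only the Igha position was used.

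IGHJ2 was read from the first J name. V names were ambiguous for 571 sequences (3.32%), 178 of them IGHJ2 (3.19%), and the first was used. A clonotype was a CDR3 nucleotide sequence with its flanking codons, V and J segment within 1 library. Libraries held 244 to 2134 sequences, and intervals for shares are 95% Wilson intervals that cover counting error only. The germline J segments were read from GRCm38 with the RefSeq annotation and matched by name.

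The labels give each mouse a number for both of its libraries, so that compartments were compared as pairs within a mouse with the two-sided exact signed-rank test and treatments with the two-sided exact Mann-Whitney test, adjusted by Benjamini-Hochberg over the measures or families named beside each value. Changes of a compartment difference with treatment were tested by exact permutation over mice. With 5 pairs the smallest p is 0.063 and with 6 it is 0.03125. V family and J pairs with at least 3 clonotypes in at least 3 libraries were tested with limma on log2 percent of clonotypes, with 0.5 clonotypes added and the mouse as a block between compartments. The limma step and the exact tests were tested on simulated data. The text names the 10 V segments most frequent with IGHJ2 by clonotypes and by sequences, the Ighv3 segments, the 5 most frequent D segments, the IGHJ2 pairs past the threshold, the 10 largest IGHJ2 clonotypes and those found in the most mice, the Ighj2-encoded motif whole or trimmed, and the 5 most frequent sets of 3 residues before it. IGHD6-3, Ighv12-IGHJ2, Ighv3-IGHJ2, Ighv14-IGHJ2, the pairs with other J segments, and the families and expanded clonotypes outside this rule were named after their values were seen. The members, lists and tests were chosen with earlier results of these data known. Alternatives were reads or sequences as the unit, translated CDR3s, sequences of at least 3 reads, unambiguous V names, other thresholds, filters and priors, a permutation test of means, an unpaired test, each mouse left out and the merging of clonotypes 1 nucleotide apart, which was chosen after seeing the data. Python 3.11.15 with numpy 2.4.6, pandas 2.3.3, scipy 1.17.1 and matplotlib 3.10.9 and R 4.3.3 with limma 3.58.1 were used.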

Additional observations from a re-analysis of the deposited data

Results flagged for a closer look

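In 3 of 24 groups of libraries tested for a value far from the others, 1 mouse stood apart in the share of IGHJ2 sequences held by clonotypes of 20 or more. Chance gives about 1 in 20 for values without ties, and this rate does not apply to the 2 intravascular groups, where all other libraries were at 0% because none of their clonotypes reached 20 sequences. Among the PBS extravascular libraries, mouse 5 had 0% and the nearest of the others 52.2%. Among the PBS intravascular libraries, mouse 1 had 12.9% and the others 0%, its expanded clonotype being IGHV3-5 with IGHD2-2. The largest clonotype of mouse 6, with 18 sequences, took 15.0% of its IGHJ2 sequences, so that mouse 1 did not stand apart by its largest clonotype. Among the UPEC intravascular libraries, mouse 4 had 42.2% and the others 0%, with IGHV3-8 and IGHV12-3 clonotypes of 98 and 26 sequences.

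The extravascular minus intravascular difference in the CDR3 length of IGHJ2 clonotypes differed between treatments by 1.74 nucleotides, the only one of 6 such changes with a p under 0.05 (exact permutation test over mice, p = 0.0195, not adjusted). It was -1.62 nucleotides in PBS mice and 0.119 in UPEC mice.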

How the results depend on the processing

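Of 116 values under alternatives other than leaving out a mouse, 97 counted as unchanged, and of 184 values with 1 mouse left out 159 did. For the exact tests, unchanged means the same direction and the same side of the threshold. For the limma fits it means a like number of IGHJ2 pairs called, where 3 after merging in place of 2 counted as unchanged. The UPEC compartment difference in the IGHJ2 share of clonotypes turned to -1.51 points by sequence and -1.10 with at least 3 reads. The UPEC minus PBS difference in that share became 2.84 by sequence and 0.544 with at least 3 reads in intravascular libraries, and 0.189 after merging in extravascular ones. None of these passed a test. For the exact tests here, passing means an unadjusted p under 0.05, which does not make a call after adjustment. The PBS compartment difference in the Ighv3 share of IGHJ2 clonotypes was 10.9 points by sequence and -26.0 after merging, and its UPEC minus PBS difference 4.63 after merging. In PBS mice the unadjusted p of CDR3 length no longer passed with at least 3 reads (-1.43), and that of N nucleotides passed after merging (-0.480, adjusted p = 0.0859 over 11 measures). N nucleotides of IGHJ2 against other J segments passed at 0.436 by sequence, 0.571 with at least 3 reads and 0.320 after merging (exact p = 0.0322, 0.00488 and 0.0322). The expanded share in PBS mice passed, unadjusted, with a threshold of 10 (54.2), as the largest clonotype (28.2) and in the unpaired test without the replicate block (56.8, exact Mann-Whitney p = 0.0152), and the UPEC minus PBS difference with at least 3 reads (-44.3). The tests with no replicate block changed no other call on IGHJ2, and limma without it called 5 of 25 pairs in place of 6, the 2 IGHJ2 pairs among them. With V segments in place of families, limma called 0 of 16 IGHJ2 pairs and 2 of all 49 in PBS mice. With no filter it called 1 of 11 IGHJ2 pairs (Ighv14, adjusted p = 0.0455) and 2 of all 45 between treatments.

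With 1 mouse left out, the share of sequences ranged from -1.94 to 7.29 points between PBS compartments (below 0 without mouse 2), from -3.97 to 1.81 between UPEC compartments (above 0 without mouse 2) and from -5.98 to 3.66 between treatments in extravascular libraries (above 0 without PBS or UPEC mouse 2). The share of clonotypes ranged from -1.70 to 2.55 between PBS compartments (below 0 without mouse 2) and from -1.97 to 1.13 between UPEC ones (below 0 without mouse 1 or 4), and between treatments from -3.42 to 1.33 extravascular (above 0 without PBS mouse 2) and from -0.608 to 0.359 intravascular (above 0 without PBS mouse 1 or 3 or UPEC mouse 2). Between PBS compartments the Ighv3 share ranged from -6.26 to 1.90 (above 0 without mouse 5) and N nucleotides from -0.479 to 0.0332 (above 0 without mouse 1). CDR3 length there ranged from -1.88 to -1.41, each with the smallest p that 5 pairs allow. The expanded share between treatments ranged from -36.2 to -15.7 and passed without PBS mouse 5. IGHJ2 pairs called ranged from 0 (of 5 tested, without mouse 3, where 3 of all 22 pairs were called) to 2 between PBS compartments and from 0 to 1 (of 5, without PBS mouse 1, where 2 of all 21 were called) between treatments. The cause of these changes was not tested. Thinning libraries to a common depth was not run, and the share of the largest clonotype was given in its place. Between 86 and 850 IGHJ2 sequences per library limit all shares.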
